A study of Mus musculus with 32 samples.

Results

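Endoplasmic reticulum (ER) chaperones and partner genes that the unfolded protein response induces were followed across the livers of an 8-group mouse study. The 10 genes, taken by name from a fixed list and matched to Ensembl identifiers, were Hspa5, Hsp90b1, Calr, Pdia4, Dnajb9, Sdf2l1, Creld2, Manf, Herpud1 and Xbp1. The list was chosen with earlier results of these data known, so shares of all genes set beside its counts are descriptive only. All 10 were among the 52636 genes of the count table and all 10 were among the 15599 genes that passed the filter on low counts. The study sequenced polyadenylated RNA from 32 livers, 4 per group, each with its own number in the labels, which do not say outright that each came from a separate mouse. Its title concerns how thyroid hormone receptor beta acts while liver fibrosis resolves, and its groups ask what carbon tetrachloride (CCl4, a solvent that hepatocytes convert into a toxic radical) changed, what triiodothyronine (T3, the active thyroid hormone) changed, and whether the receptor gene mattered.

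The groups were receptor knockout (KO) mice given T3 and CCl4, wild-type (WT) mice given T3 and CCl4, KO mice given T3 and oil, WT mice given T3 and oil, KO mice given phosphate-buffered saline (PBS) and CCl4, WT mice given PBS and CCl4, KO mice given PBS and oil, and WT mice given PBS and oil. All 8 groups ate a PTU/LID diet, which blocks the making of thyroid hormone, so mice without T3 were short of it. CCl4 was given at 0.4 µl per g body weight 2 times a week for 4 weeks, 9 injections in all. T3 was put in the drinking water at 1 µg/ml in the last of those weeks, and livers were taken 24 hours after the last CCl4 injection. The labels give the knockout as one of thyroid hormone receptor beta without naming the deleted part, a tissue restriction or the age of the mice.

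The ER folds secreted and membrane proteins, and hepatocytes secrete most plasma proteins. When unfolded proteins build up there, the sensors IRE1, PERK and ATF6 leave the chaperone BiP and switch on genes that fold, modify or remove proteins. IRE1 splices the messenger RNA of the transcription factor XBP1, ATF6 is cut to release a transcription factor of its own, and PERK slows translation and raises ATF4 and CHOP. Many of the induced chaperone genes carry the ER stress response element (ERSE) in their promoters, where ATF6 can act together with the factor NF-Y.

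The folding genes were Hspa5 (ENSMUSG00000026864, chromosome 2, 34771970 to 34777547), which encodes BiP, and Hsp90b1 (ENSMUSG00000020048, chromosome 10, 86690209 to 86705509), which encodes GRP94, the HSP90 of the ER. Calr (ENSMUSG00000003814, chromosome 8, 84841850 to 84846934) encodes the calcium-binding chaperone of glycoproteins calreticulin, and Pdia4 (ENSMUSG00000025823, chromosome 6, 47796141 to 47813430) a protein disulfide isomerase. Dnajb9 (ENSMUSG00000014905, chromosome 12, 44205559 to 44210326) and Sdf2l1 (ENSMUSG00000022769, chromosome 16, 17130138 to 17132383) encode partners of BiP. Creld2 (ENSMUSG00000023272, chromosome 15, 88819646 to 88826683) and Manf (ENSMUSG00000032575, chromosome 9, 106838312 to 106891979) encode ER stress-induced proteins that cells can also secrete. Herpud1 (ENSMUSG00000031770, chromosome 8, 94386438 to 94395377) belongs to the ER-associated degradation of misfolded proteins, and Xbp1 (ENSMUSG00000020484, chromosome 11, 5520659 to 5525893) encodes the transcription factor itself. Positions are 1-based on GRCm38 and cover the whole gene. Counts per gene do not separate spliced from unspliced Xbp1 messenger RNA. The annotated spans of Herpud1, Hsp90b1 and Manf overlap other genes, among them the antisense gene Gm15890 at Herpud1, the pseudogene 1810014B01Rik at Hsp90b1 and Dcaf1 at Manf, and with the strand setting of the counting not given, reads from shared bases cannot be told apart.

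Promoter sequence is shown because these genes are the textbook carriers of ERSE, and the letters allow the expression values to be read beside them. RefSeq windows on GRCm38.p6, from 250 bases before to 50 after each gene's start, were found for 9 of the 10 genes, and Manf had none in the table used. The motifs searched on both strands were ERSE, which is CCAAT and CCACG with any 9 bases between them, the related ERSE-II, which is ATTGG and CCACG with any 1 base between them, and TGACGTG, the core of the unfolded protein response element (UPRE), and no match of 1 motif overlapped a match of another in the sequences below. An exact ERSE was found in 4 of the 9 windows (Hspa5, Hsp90b1, Calr and Creld2), against 0.137% of the 27025 genes with a window. With at most 1 mismatch there were 6 of 9, adding Pdia4 and Herpud1, against 1.72% of all genes. The ERSE match of Herpud1 reaches the gene's start (positions -18 to 0 counted from it) and is not among the sequences below. ERSE-II was found in Herpud1 alone of the 9 (0.0444% of all genes) and the UPRE core in Hspa5 alone (2.22% of all genes). As these genes are textbook carriers of ERSE, its share among them was foreseeable and tests nothing. None of these letters were found in the windows of Xbp1, Dnajb9 and Sdf2l1, which says nothing of sites elsewhere. Each sequence below runs 5′ to 3′ along the gene, with the matched letters in capitals.
Hspa5, ERSE (chr2:34772020-34772048, plus strand): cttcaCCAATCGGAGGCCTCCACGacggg
Hspa5, UPRE core (chr2:34771928-34771944, plus strand): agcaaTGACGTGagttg
Hsp90b1, 3 ERSE matches, the middle one with 1 mismatch (chr10:86705528-86705661, minus strand): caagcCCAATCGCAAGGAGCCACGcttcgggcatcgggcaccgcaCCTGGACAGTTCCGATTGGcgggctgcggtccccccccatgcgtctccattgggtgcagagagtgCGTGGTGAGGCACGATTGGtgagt
Calr, ERSE (chr8:84847070-84847098, minus strand): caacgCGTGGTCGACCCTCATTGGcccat
Creld2, ERSE (chr15:88819515-88819543, plus strand): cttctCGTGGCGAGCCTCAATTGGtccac
Pdia4, ERSE with 1 mismatch (chr6:47813597-47813625, minus strand): aaccgAGTGGCAGCCCGTGATTGGtggtc
Herpud1, ERSE-II (chr8:94386372-94386392, plus strand): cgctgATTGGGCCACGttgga
In Calr, Creld2 and Pdia4 the element lies in the reverse orientation, so its CCAAT end reads ATTGG, and Hsp90b1 holds matches in both orientations.

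Library totals ranged from 16985162 to 26118055 counts, and levels are given as CPM, read counts scaled by library size with TMM factors. The hepatocyte markers Alb, Apoa1, Ttr, Serpina1a and Tat were present in all groups, with none at 0. Thrb, the targeted gene, kept reads in KO livers and averaged 20.1 ± 3.46 CPM in KO T3 CCl4 livers and 40.5 ± 5.35 CPM in WT T3 CCl4 livers (SD, n = 4 each), but 19.99 ± 3.18 CPM in KO PBS CCl4 livers and 23.5 ± 9.38 CPM in WT PBS CCl4 livers, which overlapped. Dio1, a gene that T3 induces in liver, averaged 114 ± 26.3 CPM in KO T3 CCl4 livers and 1004 ± 123 CPM in WT T3 CCl4 livers, against 11.8 ± 7.13 CPM in KO PBS CCl4 livers and 0.726 ± 0.247 CPM in WT PBS CCl4 livers. The libraries farthest from their group means over all tested genes were replicate 2 of the WT PBS CCl4 group and replicate 3 of the KO PBS CCl4 group.

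Of the 8 groups, KO mice given T3 and CCl4 had the highest mean level for 9 of the 10 genes. Hspa5 was the exception, with 3099 ± 1055 CPM in KO T3 CCl4 livers and 3177 ± 805 CPM in WT PBS CCl4 livers (SD, n = 4 each), 2 groups that overlapped. The lowest mean was always in a group on oil, in KO T3 oil livers for Hspa5, Dnajb9, Hsp90b1 and Manf, in WT T3 oil livers for Xbp1, Herpud1, Sdf2l1, Pdia4 and Calr, and in WT PBS oil livers for Creld2. Between highest and lowest group mean, Creld2 spanned 12.4-fold, Sdf2l1 7.80-fold, Hspa5 5.61-fold, Manf 4.85-fold, Pdia4 4.29-fold, Dnajb9 3.79-fold, Herpud1 3.67-fold, Hsp90b1 3.45-fold, Calr 2.38-fold and Xbp1 1.93-fold. In order of group means, Pdia4 was the single gene whose highest group, KO T3 CCl4, did not overlap the next, and Hspa5 had 1 gap lower in its order, between KO PBS CCl4 and WT T3 CCl4 livers. Every other pair of neighbouring groups overlapped in every gene. Per kilobase of exon, which allows levels of different genes to be compared, Calr and Hspa5 were the most abundant, with mean levels of 379 and 366 CPM per kb over the 32 livers, and Dnajb9 the least, with 45.1 CPM per kb.

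**Figure D1:**
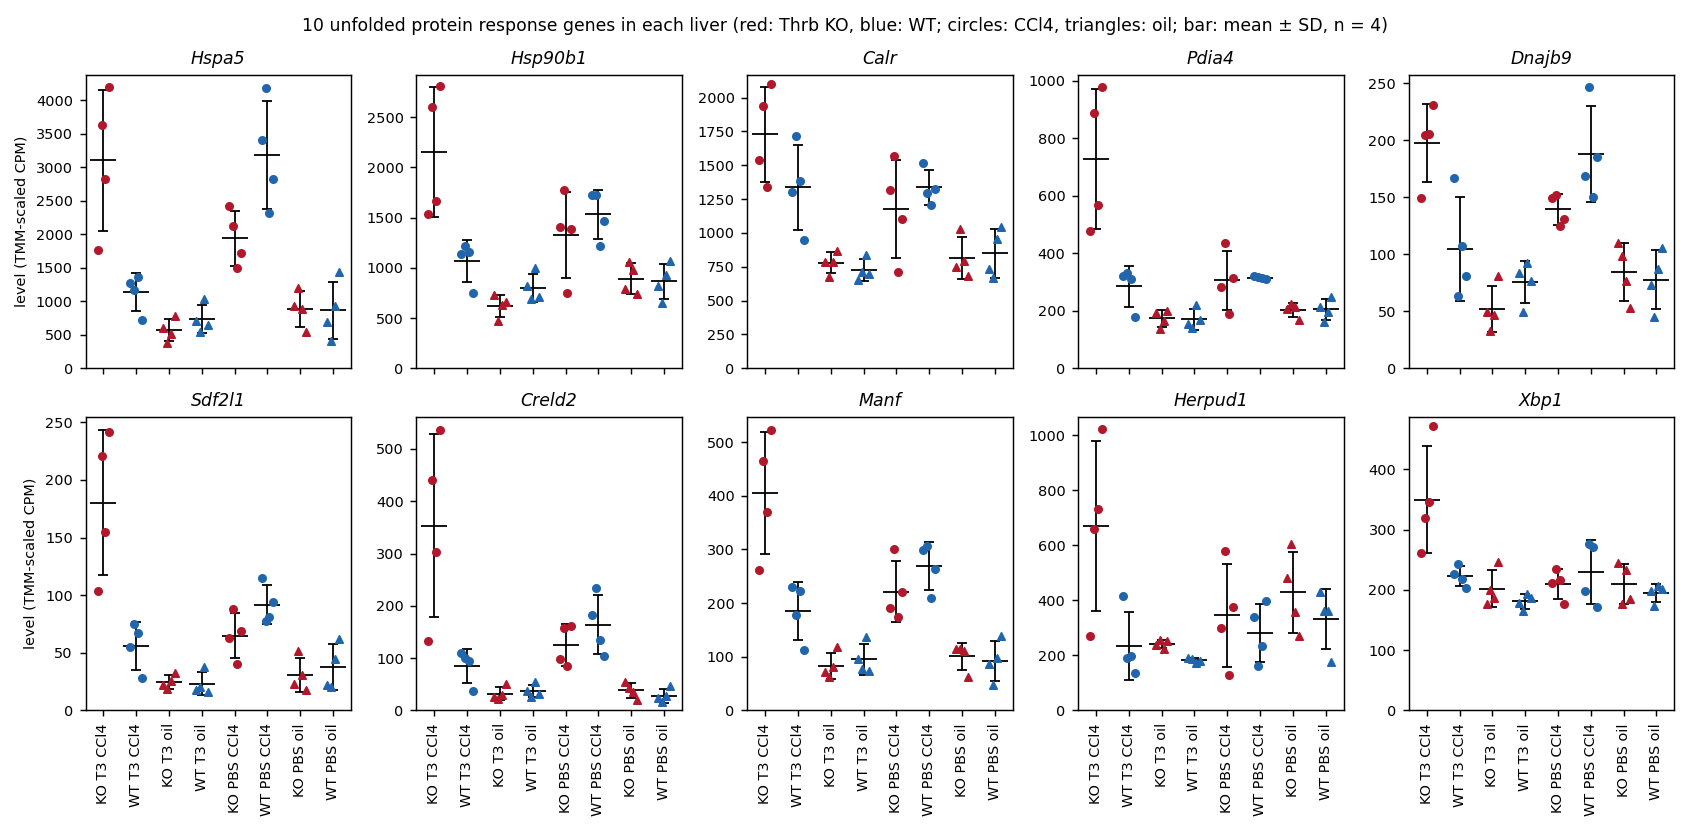
Level of each of the 10 genes in each of the 32 livers (vertical axis, TMM-scaled CPM from 0) by group (horizontal axis), with KO in red, WT in blue, CCl4 as circles and oil as triangles, and black bars for mean ± SD of 4 livers. In the KO T3 CCl4 group at the left of each panel, Pdia4 ran from 477 to 979.9 CPM, above all 28 other livers, whose highest value was 437 CPM.

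All 10 genes differed over the 8 groups by edgeR's quasi-likelihood F test, adjusted by Benjamini-Hochberg, where 77.2% of all genes tested did. Differences between groups made up a median of 78.2% of the variance of the 10 genes in log2 CPM, against 59.4% for all genes tested. By gene this share was highest for Creld2 (83.9%) and lowest for Herpud1 (49.2%) and Xbp1 (64.2%).

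Between genotypes, the genes stood apart in mice given T3 and CCl4: 9 of the 10 rose in KO livers relative to WT livers and none fell. Calr was the one gene not called. Among all genes tested 22.9% were called in this comparison, 10.4% as higher in KO livers, and the median log2 fold change was 1.24 for the 10 genes and 0.02 for all genes. In 7 of the 10 genes (Hspa5, Xbp1, Sdf2l1, Pdia4, Hsp90b1, Creld2 and Manf) every KO liver lay above every WT liver, as it did in 14.2% of all genes tested. Fewer cells of a type and less RNA per cell cannot be told apart in these whole livers.

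Hspa5 measured 1763, 3629, 2816 and 4189.9 CPM in the 4 KO T3 CCl4 livers, against 1276, 1169, 1368 and 726 CPM in the 4 WT T3 CCl4 livers. The lowest KO liver, replicate 1, was above the highest WT liver, and the log2 fold change was 1.45 ± 0.32 (SE), with an adjusted p of 0.00161 by the same edgeR test and Benjamini-Hochberg adjustment, as for all adjusted p-values that follow. Hsp90b1, the other large chaperone, had 1534, 2601, 1669 and 2809 CPM in KO livers, against 1139, 1215, 1162 and 754 CPM in WT livers. Its groups did not overlap either, with a log2 fold change of 1.01 ± 0.23 (adjusted p = 0.00229). Calr gave 1541, 1936, 1336 and 2098 CPM in KO livers, against 1303, 1714, 1382 and 951 CPM in WT livers. Here KO replicate 3 fell below WT replicates 2 and 3, and the log2 fold change of 0.37 ± 0.21 did not pass (adjusted p = 0.203). The oxidoreductase gene Pdia4 had 477, 887, 569 and 979.9 CPM in KO livers, against 323, 332, 309.6 and 179 CPM in WT livers. It had the smallest adjusted p of the 10 genes, 1.16e-04, at a log2 fold change of 1.35 ± 0.23.

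Of the BiP partners, Sdf2l1 had 104, 221, 154 and 242 CPM in KO T3 CCl4 livers, against 54.7, 75.3, 67.2 and 27.8 CPM in WT T3 CCl4 livers. All 4 KO livers were above all 4 WT livers (log2 fold change 1.68 ± 0.37, adjusted p = 0.0014). Dnajb9, an ERdj4 co-chaperone gene, had 149.6, 204, 206 and 231 CPM in KO livers, against 167, 63.2, 107 and 80.6 CPM in WT livers. WT replicate 1 lay above KO replicate 1, and the log2 fold change was 0.92 ± 0.29 (adjusted p = 0.0204). That call was lost without KO replicate 4 (adjusted p = 0.0585), without WT replicate 2 (0.0895) and without WT replicate 4 (0.0756), which left 8 genes called.

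Creld2, whose protein can be secreted, measured 133, 441, 302 and 535 CPM in KO T3 CCl4 livers, against 109.6, 100.3, 94.7 and 37.5 CPM in WT T3 CCl4 livers. KO replicate 1 sat close above the highest WT liver and the other 3 KO livers well above it, and the log2 fold change of 2.04 ± 0.40 was the largest of the 10 (adjusted p = 5.14e-04). Manf had 262, 465, 369 and 523 CPM in KO livers, against 230.2, 177, 222 and 112 CPM in WT livers, without overlap (log2 fold change 1.13 ± 0.29, adjusted p = 0.00511). Herpud1, the degradation gene, had 271, 659, 732 and 1022 CPM in KO livers, against 417, 193, 197 and 135 CPM in WT livers. KO replicate 1 lay within the WT range, and the gene still passed (log2 fold change 1.51 ± 0.39, adjusted p = 0.00559). Xbp1 had 262, 319.5, 346 and 472 CPM in KO livers, against 227, 244, 217 and 204 CPM in WT livers. Its groups did not overlap, at the smallest log2 fold change of the 9 genes called, 0.65 ± 0.16 (adjusted p = 0.00431).

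The spread within these 2 groups ran through the genes together. KO T3 CCl4 replicate 1 was below its group mean in log2 CPM in all 10 genes and replicate 4 above it in all 10, and WT T3 CCl4 replicate 4 was below its group mean in all 10.

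In the other 3 pairs of genotypes none of the 10 genes was called by edgeR or by DESeq2. In mice given T3 and oil 16.3% of all genes tested were called, and the 10 genes' log2 fold changes ran from -0.54 (Dnajb9) to 0.40 (Herpud1), with 0 of 10 at an unadjusted p under 0.05. Here and below, shares of all genes called rest on adjusted p-values. The share of all genes at an unadjusted p under 0.05 was not counted, so the unadjusted counts stand without one. In mice given PBS and CCl4, where 2.25% of all genes were called, they ran from -0.71 (Hspa5) to 0.29 (Herpud1), with 1 of 10 under 0.05. In mice given PBS and oil, where 0.538% of all genes were called, they ran from -0.28 (Sdf2l1) to 0.42 (Creld2), with 0 of 10 under 0.05. Hspa5 in CCl4 livers without T3 had 2421, 2123, 1493 and 1712 CPM in KO livers, against 3401, 4182, 2308 and 2817 CPM in WT livers. The KO livers were mostly lower there, with 1 overlap, and the log2 fold change of -0.71 ± 0.32 did not pass (adjusted p = 0.234).

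**Figure D2:**
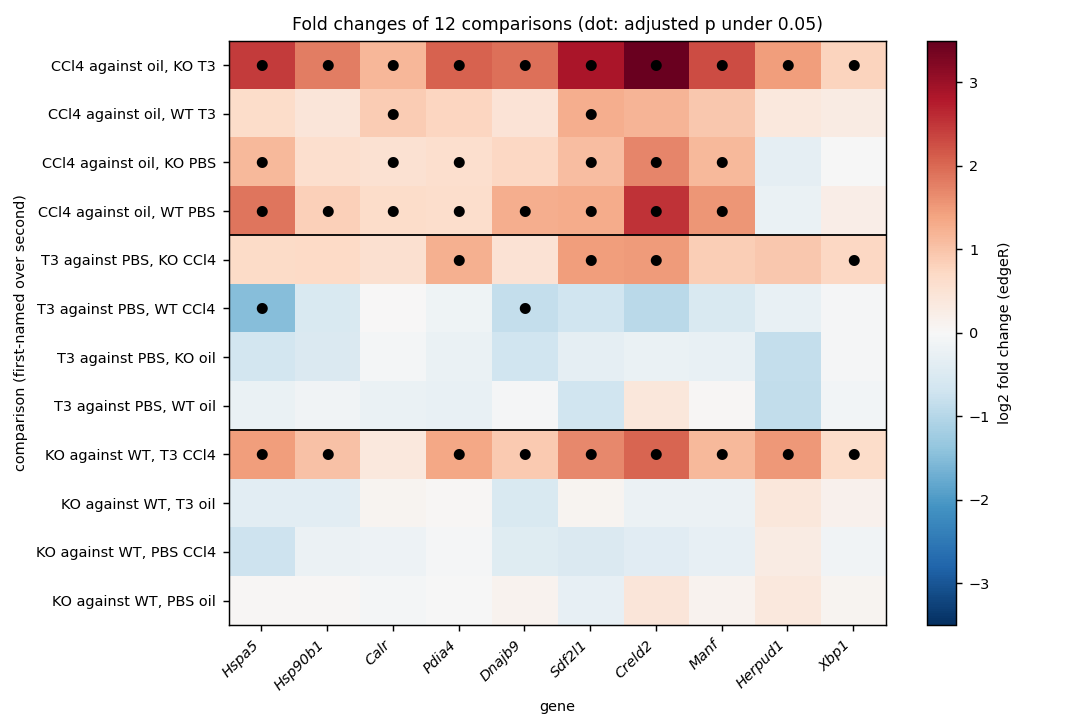
Log2 fold change (colour) of each of the 10 genes (columns) in each of 12 comparisons (rows, first-named group over second), with a dot where the adjusted p was under 0.05. The row of KO against WT in T3-treated, CCl4-injected mice holds 9 dots and the other 3 genotype rows none.

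CCl4 was compared with oil in 4 settings, and each of the 10 genes that was called in any of them rose. In KO mice given T3 all 10 genes rose in CCl4 livers relative to oil livers, with log2 fold changes from 0.79 (Xbp1) to 3.45 (Creld2) and a median of 1.995, against -0.00 for all genes. In that comparison 39.6% of all genes tested were called, 19.7% as higher, and all 10 genes, against 19.9% of all genes, had every CCl4 liver above every oil liver. Hspa5, with the KO T3 CCl4 values above, had 594, 380.4, 518 and 772 CPM in KO T3 oil livers. Creld2 had 26.5, 22.2, 29.9 and 50.8 CPM in KO T3 oil livers, so its lowest CCl4 liver stood well above its highest oil liver, and its log2 fold change was 3.45 ± 0.43 (adjusted p = 1.82e-06). Pdia4 had 194, 138, 163 and 200.2 CPM in KO T3 oil livers and the smallest adjusted p, 8.16e-07 (log2 fold change 2.07 ± 0.24). Herpud1 had 237, 257, 224 and 251 CPM in KO T3 oil livers, just under the lowest CCl4 liver, and Xbp1 had 176, 201, 187 and 246 CPM, also just under. All 10 calls remained whichever single library of these groups was left out.

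In WT mice given T3 the same comparison called 2 of the 10 genes, Sdf2l1 and Calr, both higher, where 3.40% of all genes tested were called, 1.67% as higher. Calr had 1303, 1714, 1382 and 951 CPM in WT T3 CCl4 livers, against 651, 711, 839 and 699 CPM in WT T3 oil livers, with no overlap (log2 fold change 0.88 ± 0.21, adjusted p = 0.0115). Sdf2l1 had 54.7, 75.3, 67.2 and 27.8 CPM in WT T3 CCl4 livers, against 17.98, 20.3, 37.8 and 16.3 CPM in WT T3 oil livers, where CCl4 replicate 4 lay within the oil range (log2 fold change 1.28 ± 0.37, adjusted p = 0.0481). The other 8 genes had positive log2 fold changes, from 0.30 (Xbp1) to 1.20 (Creld2), that did not pass. The count moved with single libraries: it was 0 without CCl4 replicate 2, 1 without CCl4 replicate 1 or 3 or oil replicate 1, 2 or 4, 4 without oil replicate 3 and 5 without CCl4 replicate 4. Replicate 4 had the lowest value in the WT T3 CCl4 group for each of the 10 genes but Dnajb9. DESeq2 called 5.

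In WT mice given PBS, 8 of the 10 genes rose with CCl4, where 46.2% of all genes tested were called, 24.6% as higher. Hspa5 had 3401, 4182, 2308 and 2817 CPM in WT PBS CCl4 livers, against 685, 412, 922 and 1429 CPM in WT PBS oil livers. All 4 CCl4 livers were above all 4 oil livers (log2 fold change 1.88 ± 0.33, adjusted p = 5.85e-05). Creld2 changed most, with 182, 233, 135 and 104 CPM in WT PBS CCl4 livers, against 24.2, 15.4, 27.6 and 46.96 CPM in WT PBS oil livers (log2 fold change 2.52 ± 0.41, adjusted p = 3.00e-05). Manf, Sdf2l1, Dnajb9, Hsp90b1, Calr and Pdia4 rose by 1.54, 1.29, 1.27, 0.82, 0.66 and 0.62 on the log2 scale. The call of Pdia4 was lost without CCl4 replicate 1 (adjusted p = 0.0501), oil replicate 2 (0.0969) or oil replicate 3 (0.0662). Herpud1 was not called, with 338, 163, 233 and 399 CPM in WT PBS CCl4 livers, against 429, 362, 361 and 175 CPM in WT PBS oil livers, values that overlapped widely (log2 fold change -0.23 ± 0.38). Xbp1 was not called either (log2 fold change 0.23 ± 0.16, adjusted p = 0.245).

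In KO mice given PBS, 6 of the 10 genes rose with CCl4 (Hspa5, Sdf2l1, Pdia4, Calr, Creld2 and Manf), where 31.1% of all genes tested were called, 17.8% as higher. Creld2 again changed most, with 98.1, 157, 84.8 and 161 CPM in KO PBS CCl4 livers, against 53.97, 42.1, 36.3 and 20.6 CPM in KO PBS oil livers, without overlap (log2 fold change 1.71 ± 0.40, adjusted p = 0.00254). Hspa5 had a log2 fold change of 1.12 ± 0.32 (adjusted p = 0.01), with 935, 1195, 878 and 546 CPM in KO PBS oil livers, all under the CCl4 values. Calr and Pdia4 were near the threshold (adjusted p = 0.0496 and 0.0476), and both calls were lost with RLE factors (0.0586 and 0.0547), no filter (0.0916 and 0.0746) and a fit of these 2 groups alone (0.152 and 0.0873). The count was 3 without CCl4 replicate 2, oil replicate 3 or oil replicate 4, 4 without CCl4 replicate 1 or 4 or oil replicate 1, and 7 without CCl4 replicate 3, the library far from its group mean.

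T3 given in the last week lowered 2 of the 10 genes in WT mice injected with CCl4, where 41.7% of all genes tested were called, 21.7% as lower. The 2 of 10 were no larger a share than among all genes. Hspa5 fell to the WT T3 CCl4 values of 1276, 1169, 1368 and 726 CPM, against 3401, 4182, 2308 and 2817 CPM in WT PBS CCl4 livers. All T3 livers lay under all PBS livers (log2 fold change -1.49 ± 0.32, adjusted p = 5.74e-04). Dnajb9 had 167, 63.2, 107 and 80.6 CPM in WT T3 CCl4 livers, against 168, 247, 150.4 and 185 CPM in WT PBS CCl4 livers, where T3 replicate 1 overlapped the PBS livers (log2 fold change -0.84 ± 0.29, adjusted p = 0.0191). That call was lost without T3 replicate 2 (adjusted p = 0.0888), T3 replicate 4 (0.0704) or PBS replicate 2 (0.0760). The other 8 genes had log2 fold changes from -0.94 (Creld2) to 0.00 (Calr) that did not pass. With library totals alone in place of TMM factors 7 of the 10 fell, while 42.04% of all genes tested fell and their median stood at -0.42 rather than -0.06. Without the 2 distant libraries, or with only these groups in the fit, 1 fell.

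In KO mice injected with CCl4, T3 went with higher levels: 4 of the 10 genes, Xbp1, Sdf2l1, Pdia4 and Creld2, rose relative to PBS, where 2.54% of all genes tested were called, 1.77% as higher. Pdia4 had 477, 887, 569 and 979.9 CPM in KO T3 CCl4 livers, against 284, 437, 190.0 and 314 CPM in KO PBS CCl4 livers. Its groups did not overlap (log2 fold change 1.25 ± 0.23, adjusted p = 0.00253). Xbp1 did not overlap either, with 212, 234, 217 and 176 CPM in KO PBS CCl4 livers (log2 fold change 0.74 ± 0.16, adjusted p = 0.0123). Sdf2l1 had 62.6, 87.9, 39.98 and 69.1 CPM and Creld2 98.1, 157, 84.8 and 161 CPM in KO PBS CCl4 livers. Sdf2l1 did not overlap between these groups, and Creld2 overlapped through T3 replicate 1. The log2 fold changes were 1.47 ± 0.37 for Sdf2l1 and 1.496 ± 0.40 for Creld2 (adjusted p = 0.0252 and 0.0371). The other 6 genes had positive values, from 0.50 (Dnajb9) to 0.96 (Herpud1), that did not pass. The count was 1, Pdia4, without T3 replicate 4, and 2 without T3 replicate 2 or without PBS replicate 1, 3 or 4. In a fit of these 2 groups alone none of the 10 was called.

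On oil, T3 changed none of the 10 genes by edgeR or DESeq2. In WT mice on oil 35.3% of all genes tested were called, and the 10 genes ran from -0.86 (Herpud1) to 0.38 (Creld2) in log2 fold change, with 1 of 10 at an unadjusted p under 0.05. Herpud1 had 189, 188, 174 and 181 CPM in WT T3 oil livers, against 429, 362, 361 and 175 CPM in WT PBS oil livers. WT PBS oil replicate 4 lay apart from the other 3 PBS livers and within the T3 range, and without it Herpud1 passed (adjusted p = 0.0409 by edgeR), as did Sdf2l1 without WT T3 oil replicate 3 (0.0396). In KO mice on oil 18.7% of all genes were called, and all 10 log2 fold changes were negative, from -0.83 (Herpud1) to -0.05 (Xbp1), with 3 of 10 at an unadjusted p under 0.05. There Dnajb9 passed without KO T3 oil replicate 4 (adjusted p = 0.0236) or KO PBS oil replicate 4 (0.0389).

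The difference between genotypes in the response to T3 was itself tested. Among CCl4-injected mice the T3 response was higher in KO than in WT mice for 8 of the 10 genes, all but Herpud1 and Calr, where 22.7% of all genes tested were called, 10.3% as higher. Hspa5 differed by 2.16 ± 0.45 on the log2 scale (adjusted p = 9.94e-04), made up of 0.68 ± 0.32 in KO mice and -1.49 ± 0.32 in WT mice. Creld2 differed by 2.43 ± 0.56 (adjusted p = 0.00223), made up of 1.496 ± 0.40 in KO mice and -0.94 ± 0.39 in WT mice. For Pdia4 the difference of 1.39 ± 0.32 (adjusted p = 0.00263) came with 1.25 ± 0.23 in KO mice and -0.14 ± 0.23 in WT mice. The call of Xbp1 was lost without KO T3 CCl4 replicate 4 (adjusted p = 0.0518) and in a fit of these 4 groups alone (0.0592), that of Dnajb9 was lost without the 2 distant libraries together (0.0545), and Herpud1 was gained without KO T3 CCl4 replicate 1 (0.0428), WT T3 CCl4 replicate 1 (0.0288) or KO PBS CCl4 replicate 2 (0.0442). On oil none of the 10 genes differed between genotypes in the T3 response by edgeR or DESeq2, with 0 of 10 at an unadjusted p under 0.05 and 12.2% of all genes called.

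The response to CCl4 likewise differed between genotypes in mice given T3. It was higher in KO than in WT mice for 7 of the 10 genes (all but Xbp1, Herpud1 and Calr), where 13.5% of all genes tested were called, 6.20% as higher. Hspa5 differed by 1.82 ± 0.45 (adjusted p = 0.00988), with 2.45 ± 0.33 in KO mice and 0.63 ± 0.32 in WT mice. Hsp90b1 differed by 1.38 ± 0.33 (adjusted p = 0.00845), the smallest adjusted p of the 10 here. The counts ran from 5 to 7 over the single libraries left out, since Sdf2l1 was lost without 9 of the 16 libraries (adjusted p up to 0.114 without WT T3 oil replicate 3) and Manf without 8 (up to 0.0788 without the same library). In mice given PBS none of the 10 genes differed between genotypes in the CCl4 response by edgeR or DESeq2, with 0 of 10 at an unadjusted p under 0.05 and 0.0192% of all genes called. The 2 sets of tests share the KO T3 CCl4 and WT T3 CCl4 livers, so they are not independent of each other.

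Whether T3 acted differently in CCl4 than in oil livers was tested within each genotype. In KO mice 4 of the 10 genes (Xbp1, Sdf2l1, Pdia4 and Hsp90b1) had a higher T3 response in CCl4 livers, where 3.71% of all genes tested were called, 1.15% as higher. All 10 were under 0.05 unadjusted, a looser threshold than that of these shares, and the share of all genes under it was not counted. Pdia4 differed by 1.47 ± 0.32 (adjusted p = 0.00852) and kept its call whichever library was left out, whereas the count of genes was 1 without KO T3 CCl4 replicate 2 or 4, KO T3 oil replicate 2 or 3, KO PBS CCl4 replicate 4 or KO PBS oil replicate 3, was 2 without KO T3 CCl4 replicate 3, KO T3 oil replicate 1, KO PBS CCl4 replicate 1 or KO PBS oil replicate 1 or 2, and was 6 without KO T3 CCl4 replicate 1 or KO PBS oil replicate 4. In WT mice Hspa5 alone differed, with a lower T3 response in CCl4 livers (-1.25 ± 0.45, adjusted p = 0.0428), where 23.9% of all genes were called, 13.1% as lower. That call was lost on leaving out any of 11 of the 16 libraries (WT T3 CCl4 replicates 1, 2 and 4, WT T3 oil replicates 1, 3 and 4, WT PBS CCl4 replicates 1 and 2, and WT PBS oil replicates 1, 2 and 3), with adjusted p up to 0.0993.

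**Figure D3:**
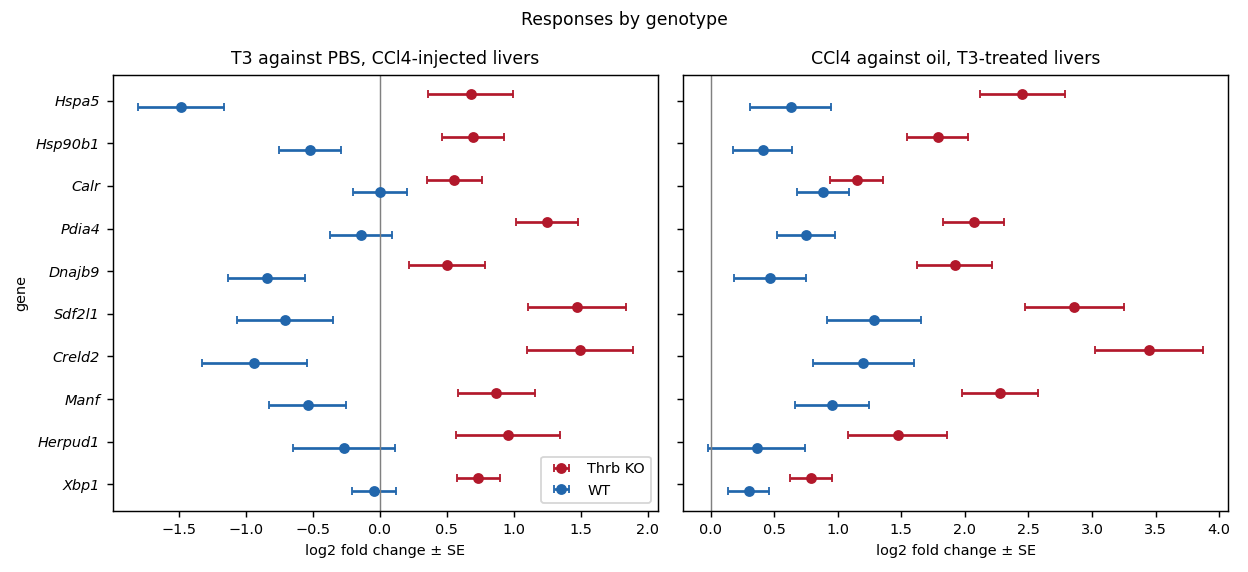
Log2 fold change ± SE of each gene (rows) for T3 against PBS in CCl4-injected livers (left) and CCl4 against oil in T3-treated livers (right), with KO in red above WT in blue. In the left panel all 10 KO values are positive, from 0.50 to 1.496, and the WT values run from -1.49 to 0.00.

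The 10 genes also moved together among livers of the same group. Deviations from group means in log2 CPM over 32 livers had a median Pearson r of 0.69 over the 45 pairs of genes, from 0.10 (Xbp1 with Herpud1) to 0.91 (Pdia4 with Hsp90b1), and the median Spearman rho was 0.69. The libraries are the same for each pair, so depth and cell makeup are shared. By permutation within groups (100000 resamples, two-sided, adjusted over the 45 pairs), 33 pairs passed 0.05 by r and 33 by rho. Pairs of other genes were not put through the same test, so how many of them would pass is not known. Pdia4 and Hsp90b1 had r = 0.91 and rho = 0.88, each with p = 1.0e-05, the smallest the resamples can give (adjusted 2.5e-05 and 3.7e-05), and r = 0.89 without the 2 livers farthest from the median of Pdia4. Xbp1 and Herpud1 had r = 0.10 (p = 0.681, also after adjustment) and rho = -0.09 (p = 0.682, also after adjustment), and r = 0.07 without the 2 livers farthest from the median of Xbp1. These 2 genes were the least tied to the others, with median r of 0.41 for Xbp1 and 0.38 for Herpud1, against 0.80 for Hspa5, Sdf2l1 and Pdia4.

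**Figure D4:**
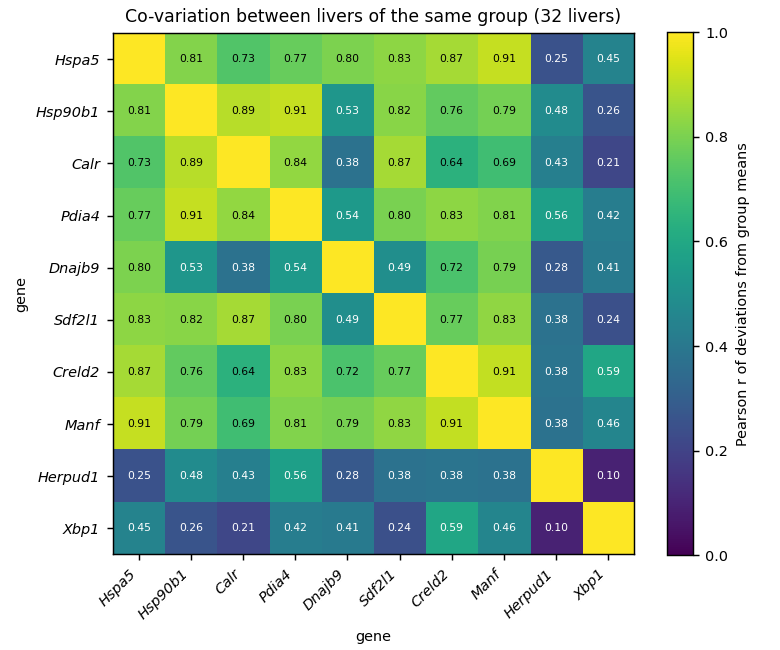
Pearson r between pairs of genes of the deviations from group means in log2 CPM over 32 livers (colour from 0 to 1, value in each cell). The rows of Herpud1 and Xbp1 are mostly darker, from r of 0.10 between them to 0.59 (Xbp1 with Creld2). The block of the other 8 genes is mostly brighter, from 0.38 (Dnajb9 with Calr) to 0.91, so the ranges overlap.

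Among genes outside the list, the profile most like the mean profile of the 10 over the 32 livers, by the same deviations from group means, was that of Hyou1, another ER chaperone gene (r = 0.92). Dnajb11, a BiP co-chaperone gene (0.92), Tmed9, of vesicle transport (0.85), Pdia3, a disulfide isomerase gene (0.85), and Slc35b1, a transporter gene (0.83), followed. The next were Gfpt1 of the hexosamine pathway, Ero1lb, an ER oxidase gene, Atp2a2, the ER calcium pump gene, Sel1l of ER-associated degradation, and Slc17a9, from 0.81 to 0.78.

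Other genes of the pathway were read beside the 10 in KO against WT mice given T3 and CCl4, where 10.4% of all genes tested rose and 12.5% fell. Of 20 other ER chaperone and oxidoreductase genes 5 rose and none fell (median log2 fold change 0.30), with the smallest adjusted p in Dnajc10, a reductase of the ER (1.20 ± 0.22, adjusted p = 2.72e-04), Hyou1 (1.35 ± 0.31, adjusted p = 0.00227) and Dnajb11 (0.77 ± 0.21, adjusted p = 0.00738). Of 16 ER-associated degradation genes 3 rose and none fell (median 0.13): Syvn1, the ubiquitin ligase HRD1 (1.71 ± 0.29, adjusted p = 1.13e-04), Ube2j1, a conjugating enzyme (0.47 ± 0.14, adjusted p = 0.0132), and Derl3, also abundant in plasma cells (2.64 ± 0.84, adjusted p = 0.0236). Of 16 translocation and signal peptidase genes 3 rose and none fell (median 0.31): Srprb (0.77 ± 0.20, adjusted p = 0.00509), Spcs2 (0.47 ± 0.14, adjusted p = 0.0186) and Sec11a (0.34 ± 0.11, adjusted p = 0.0189). Of 16 ER to Golgi transport genes 4 rose and 1 fell (median 0.07), among them Kdelr3, a retrieval receptor for ER proteins (1.88 ± 0.44, adjusted p = 0.00272), and Sec23b, a coat protein gene (0.82 ± 0.20, adjusted p = 0.00364), while Sar1b, which serves lipoprotein export, fell (-1.03 ± 0.21, adjusted p = 7.39e-04).

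Of the 6 sensor and protease genes, 1 rose, Eif2ak3, which encodes PERK (0.78 ± 0.26, adjusted p = 0.0317), and none fell (median 0.10). In the PERK arm and integrated stress response 4 of 14 genes rose and none fell (median 0.90), with the smallest adjusted p in Trib3 (2.27 ± 0.63, adjusted p = 0.00913), Ddit3, which encodes CHOP (1.57 ± 0.44, adjusted p = 0.00965), and Atf3 (1.996 ± 0.63, adjusted p = 0.0212). Of 13 cytosolic heat shock genes 2 rose and none fell (median 0.35), Hspb1 (1.98 ± 0.45, adjusted p = 0.00174) and Hspa1b (1.71 ± 0.59, adjusted p = 0.0342). Of 8 mitochondrial chaperone genes none rose and 3 fell (median -0.22): Hspe1 (-0.92 ± 0.15, adjusted p = 4.95e-05), Hspd1 (-0.56 ± 0.17, adjusted p = 0.0182) and Trap1 (-0.39 ± 0.14, adjusted p = 0.0401). The heat shock and mitochondrial lists hold chaperones that work outside the ER. Among the 33 other genes with an exact ERSE in the window shown above, 16 were matched by name to genes tested, and 6 rose and 1 fell in KO relative to WT mice given T3 and CCl4 (median 0.43). Of these 6, Pdia6, Syvn1 and Derl3 are already in the lists above, so the count is not separate from theirs. Ero1b, which the gene annotation names Ero1lb, was tested but not matched by name, so these counts leave it out.

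**Figure D5:**
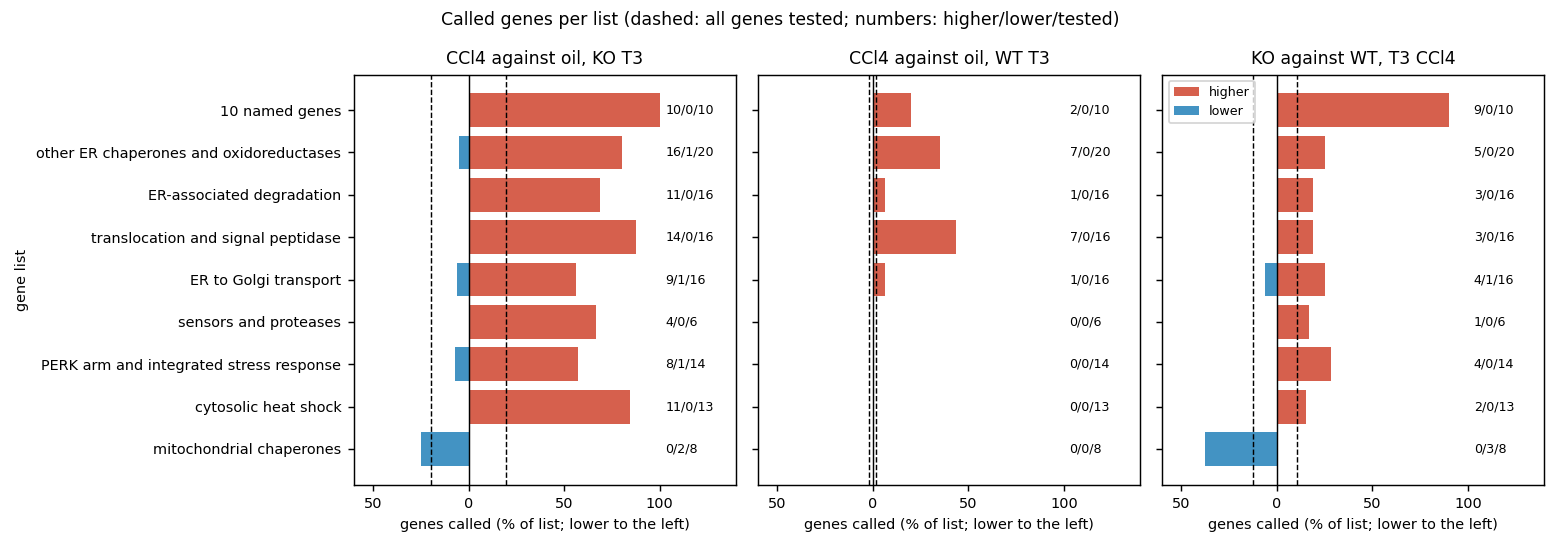
Share of each gene list called higher (red, to the right) or lower (blue, to the left) in 3 comparisons, in percent of the list's tested genes, with the shares among all genes tested as dashed lines and the counts higher, lower and tested at the right of each panel. The 10 genes reach 10 of 10, 2 of 10 and 9 of 10 higher, and the mitochondrial chaperones have 0 of 8 higher in each panel.

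With CCl4 in WT mice given PBS, where 24.6% of all genes tested rose and 21.6% fell, 9 of 20 other ER chaperone genes rose and 2 fell, with the smallest adjusted p in Ero1l, Dnajc10 and Hyou1 at 1.08 ± 0.19, 1.13 ± 0.22 and 1.57 ± 0.32 on the log2 scale, with Cnpy2 (-0.53 ± 0.17) and Sil1 (-0.35 ± 0.12) lower. In the PERK arm 10 of 14 rose, with the smallest adjusted p in Atf3 (4.30 ± 0.70), Ddit3 (2.76 ± 0.45) and Ppp1r15a (1.70 ± 0.28), and 1 fell, Vldlr (-1.74 ± 0.32). With T3 in WT mice injected with CCl4, where 20.0% of all genes tested rose and 21.7% fell, 8 of these 14 fell and 1 rose (median -1.72, against -0.06 for all genes), beside the 2 of the 10 that fell. The smallest adjusted p was in Trib3 (-4.72 ± 0.68), Ppp1r15a (-1.95 ± 0.29) and Ddit3 (-2.64 ± 0.45), and the gene that rose was Atf5 (1.17 ± 0.25). Of the 6 sensor and protease genes 3 fell there, Atf6 (-1.22 ± 0.21), Eif2ak3 (-1.39 ± 0.27) and Mbtps2 (-0.50 ± 0.14). Of 20 other ER chaperone genes 4 fell, among them Dnajc10 (-0.85 ± 0.22), and 3 rose, among them Txndc11 (0.65 ± 0.17) and Sil1 (0.48 ± 0.12). Of 16 ER-associated degradation genes 4 fell and 1 rose, and of 16 translocation genes 2 fell. More rose than fell of 16 ER to Golgi (2 and 1), 13 heat shock (3 and 1) and 8 mitochondrial genes (3 and 2). With T3 in WT mice on oil, where none of the 10 was called and 35.3% of all genes tested were, 16.2% as lower, 8 of 20 other ER chaperone genes fell and 1 rose. The smallest adjusted p was in Dnajc1 (-0.54 ± 0.12), Ppib (-0.70 ± 0.18) and Fkbp2 (-0.52 ± 0.14), and the gene that rose was Txndc11 (0.60 ± 0.17).

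Markers of other cell types moved with the difference between genotypes in T3-treated, CCl4-injected mice. Summed over 5 markers of monocyte-derived macrophages the level was 76.1 to 146 CPM in KO livers, against 49.03 to 64.1 CPM in WT livers. The 4 cholangiocyte markers summed to 32.9 to 52.6 CPM in KO livers, against 8.43 to 21.6 CPM in WT livers, and the 4 neutrophil markers to 19.7 to 43.9 CPM in KO livers, against 7.54 to 9.92 CPM in WT livers, where Ly6g was at 0. The 5 myofibroblast and stellate cell markers summed to 53.3 to 139 CPM in KO livers, against 38.6 to 57.2 CPM in WT livers. Of these markers 1 of 5, 2 of 4, 1 of 2 tested and 3 of 5 rose, in that order of cell types, where 10.4% of all genes tested rose and 12.5% fell. Plasma cells, which are rich in these chaperones, gave 7 markers summed to 89.97 to 237 CPM in KO livers, against 132 to 709 CPM in WT livers, where Tnfrsf17 was at 0, and 1 of 6 tested rose and 2 fell. The plasma cell marker that rose was Derl3, counted above with ER-associated degradation, and those that fell were Ighm and Mzb1. Kupffer cell markers (4) summed to 232 to 378 CPM in KO livers, against 386 to 656 CPM in WT livers, B cell markers (4) to 4.11 to 6.30 CPM, against 10.7 to 11.7 CPM, and hepatocyte markers (5) to 86287 to 111404 CPM, against 72109 to 107419 CPM. Of the 5 hepatocyte markers 2 fell. T cell and sinusoidal endothelial markers overlapped between the genotypes. The 5 pancreatic acinar markers summed to 6.85 to 9.82 CPM in KO livers, where Prss2 and Amy2a5 were at 0, against 11.3 to 19.1 CPM in WT livers, where Amy2a5 was at 0. The part of these cells in the levels of the 10 genes was not tested.

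Markers also moved in the other comparisons in which several of the 10 genes were called. Of all genes tested, CCl4 raised 24.6% and lowered 21.6% in WT mice given PBS, 19.7% and 19.8% in KO mice given T3, and 17.8% and 13.4% in KO mice given PBS. T3 raised 20.0% and lowered 21.7% in WT mice injected with CCl4. A count of 1 of 4 or 1 of 5 markers is near such shares. With CCl4 against oil in WT mice given PBS, all 5 hepatocyte markers fell, to sums of 43312 to 62174 CPM in CCl4 livers, against 108563 to 157114 CPM in oil livers, and all 5 monocyte-derived macrophage markers rose, to 98.2 to 127 CPM in CCl4 livers, against 24.7 to 37.8 CPM in oil livers. The hepatocyte sums were also lower in CCl4 than in oil livers of KO mice, with 86287 to 111404 CPM against 123345 to 163141 CPM under T3 and 50213 to 105994 CPM against 115932 to 134325 CPM under PBS, and 1 of 5 markers under T3 and 2 of 5 under PBS fell. In KO mice given T3, where all 10 genes rose with CCl4, 3 of 5 monocyte-derived macrophage markers rose, to sums of 76.1 to 146 CPM in CCl4 livers, against 26.3 to 44.1 CPM in oil livers, as did both neutrophil markers tested, to 19.7 to 43.9 CPM, against 4.23 to 11.4 CPM in oil livers. There 1 of 4 cholangiocyte markers rose, 3 of 5 myofibroblast and stellate cell markers rose and 1 fell, and 4 of 4 B cell, 3 of 4 T cell and 3 of 4 Kupffer cell markers fell. In KO mice given PBS, CCl4 raised 4 of 5 monocyte-derived macrophage, 4 of 5 myofibroblast and stellate cell, 3 of 4 cholangiocyte and 1 of 4 Kupffer cell markers. With T3 against PBS in WT mice injected with CCl4, where Hspa5 and Dnajb9 fell, 4 of 5 hepatocyte markers rose, to sums of 72109 to 107419 CPM in T3 livers, against 43312 to 62174 CPM in PBS livers. There all 4 Kupffer cell markers rose, all 4 cholangiocyte markers, 3 of 5 myofibroblast and stellate cell markers and both neutrophil markers tested fell. In KO mice injected with CCl4 the Kupffer cell markers summed to 232 to 378 CPM in T3 livers, against 66.2 to 178 CPM in PBS livers. The part of these shifts in the levels of the 10 genes was not tested either.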

How the data were processed

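The values used were raw counts per gene, a table of 32 libraries deposited by the authors. Build GRCm38 and the tools STAR 2.7.9a, cutadapt, Trim Galore and FastQC 0.11.5 come from the submitters' processing notes, without roles. How counting was done, and with which strand setting, is not given in the sources used here. Also, the labels' protocols name 2 library kits without saying which library had which.

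Genes were kept with edgeR's filterByExpr (minimum count 10, minimum total 15), and 15599 were tested with edgeR 4.0.16 (glmQLFit and glmQLFTest, TMM factors, all 32 libraries in 1 fit with 24 residual degrees of freedom, R 4.3.3). Benjamini-Hochberg adjustment ran over all genes tested, with calls at 0.05. Log2 CPM used a prior count of 2. Totals of 16985162 to 26118055 counts limit precision at low counts only. Non-overlap of groups was counted on CPM. Gene names, spans and exon lengths came from GENCODE on GRCm38, promoter windows from RefSeq on GRCm38.p6. The genes and lists were chosen with earlier results of these data known. Pathway genes named are among the 3 with the smallest adjusted p of those called, or among up to 2 called against the majority of their list. Outside KO against WT mice given T3 and CCl4, not every list and not every such gene is named. The genes of most similar profile are the 10 with the highest r that are not among the 10 studied, leaving out names of predicted genes. Alternatives were RLE factors, library totals alone, no filter, a replicate block, leaving out libraries, compared groups only and DESeq2 1.42.0. On simulated data with planted changes, KO against WT in T3 CCl4 livers and the test over the 8 groups were run first. CCl4 against oil in WT PBS livers was run there without planted changes. The other comparisons were not simulated. Equal replicate numbers did not pair the livers. The edgeR p-values set differences between groups against the spread between livers of the same group, estimated from all 8 groups together.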

Additional observations from a re-analysis of the deposited data

Results flagged for a closer look

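In 3 of 80 sets of 4 livers, 1 liver stood apart from the other 3 by Dixon's test, which chance gives in about 1 of 20 such groups. Pdia4 was low in WT T3 CCl4 replicate 4 (179 CPM), as was Hsp90b1 (754 CPM), and Manf was low in KO PBS oil replicate 4 (62.1 CPM). WT T3 CCl4 replicate 4 and KO PBS oil replicate 4 were below their group means in all 10 genes.

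A test of the difference between responses (edgeR, Benjamini-Hochberg adjusted) picked out the remaining values, in log2 units. The response to T3 was higher in KO than in WT mice injected with CCl4 by 2.16 for Hspa5, 0.78 for Xbp1, 1.35 for Dnajb9, 2.18 for Sdf2l1, 1.39 for Pdia4, 1.22 for Hsp90b1, 2.43 for Creld2 and 1.41 for Manf. The response to CCl4 was higher in KO than in WT mice given T3 by 1.82 for Hspa5, 1.45 for Dnajb9, 1.58 for Sdf2l1, 1.32 for Pdia4, 1.38 for Hsp90b1, 2.25 for Creld2 and 1.32 for Manf. Within WT mice the T3 response of Hspa5 differed between CCl4 and oil livers by -1.25. Within KO mice the T3 response was higher in CCl4 than in oil livers by 0.79 for Xbp1, 1.79 for Sdf2l1, 1.47 for Pdia4 and 1.21 for Hsp90b1.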

How the results depend on the processing

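No called gene among the 10 reversed its direction under any alternative tried, and 41 of the 61 calls held in all of them. Counts of genes called that moved by over 1.5 times are given here by setting. For CCl4 against oil in WT mice given T3 (2 genes), RLE factors, library totals alone, no filter and the replicate block gave 1 each, and DESeq2 gave 5. For T3 against PBS in WT mice injected with CCl4 (2 lower), library totals alone gave 7, and leaving out both distant libraries or fitting the compared groups only gave 1. For the T3 response in CCl4 minus oil livers, WT mice (1) had 5 with library totals alone and 0 with no filter, the replicate block, both distant libraries left out or compared groups only, and KO mice (4) had 2 with the replicate block and 2 with compared groups only. For T3 against PBS on oil, WT mice (0) had 1 without both distant libraries and 1 with compared groups only, and KO mice (0) had 2 with compared groups only. With compared groups only, T3 against PBS in KO mice injected with CCl4 (4) had 0, and KO against WT mice given T3 and oil (0) had 1. Calls were also lost within smaller moves of the count. For CCl4 in KO PBS livers (6), RLE factors, no filter and the replicate block gave 4, without Pdia4 and Calr, and compared groups only gave 5, also without both. For the T3 response between genotypes in CCl4 livers (8), leaving out both distant libraries lost Dnajb9 and compared groups only lost Xbp1, giving 7 each. The replicate block also lost Creld2 for T3 in KO CCl4 livers and Sdf2l1 for the CCl4 response between genotypes under T3. For T3 in KO CCl4 livers, library totals alone lost Xbp1 and leaving out both distant libraries lost Creld2. For the T3 response in CCl4 minus oil livers of KO mice, library totals alone lost Xbp1 and Sdf2l1. There no filter lost Xbp1, and leaving out both distant libraries lost Sdf2l1. The cause was not tested, other than that compared groups only leaves fewer libraries to estimate the spread. Leaving out 1 library at a time gave 7 to 8 genes for CCl4 in WT PBS, 0 to 5 in WT T3, 3 to 7 in KO PBS and 10 to 10 in KO T3 livers, 0 to 1 for T3 in WT oil, 1 to 3 in WT CCl4, 0 to 1 in KO oil and 1 to 4 in KO CCl4 livers, 8 to 9 for KO against WT in T3 CCl4 livers and 0 to 0 in the other 3 pairs. For the differences between responses it gave 7 to 9 for T3 between genotypes in CCl4 livers and 0 to 0 on oil, 5 to 7 for CCl4 between genotypes under T3 and 0 to 0 under PBS, and 0 to 2 in WT and 1 to 6 in KO mice for T3 in CCl4 minus oil livers.

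The replicate numbers did not pair the livers: of 48 same-numbered pairs 6 had correlated deviations (r over 0.1), and no comparison had all 4. Library totals alone shifted the median of all genes from 0.04 to 0.43 for CCl4 against oil in WT mice given PBS, to 0.35 from 0.04 in KO mice given PBS, to 0.16 from -0.00 in KO mice given T3, and to 0.17 from 0.02 for KO against WT in T3 CCl4 livers. The split of all genes called moved with it. In T3 CCl4 livers 1621 were higher and 1945 lower in KO, and 2174 and 1383 with library totals alone. For CCl4 in WT PBS livers the split was 3834 higher and 3368 lower, and 6941 and 1549 with library totals alone. For T3 in WT CCl4 livers it was 3116 and 3390, and 1671 and 6558 with library totals alone. With 4 livers a group, log2 standard errors in comparisons of 2 groups ran from 0.16 for Xbp1 to over 0.40 for Creld2, and differences of that size were not detectable.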
